A study of Homo sapiens with 18 samples.

Results

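The keratin family was followed across the neural differentiation of H9, an established human embryonic stem (ES) cell line. A gene was taken as a member where its symbol on the array was KRT followed by a number and at most 1 letter, and where at least 1 probe set named that gene alone. This gave 44 keratins of the 19775 genes that had such a probe set. Each gene was read from 1 probe set, a group of short probes for 1 transcript, and its value is a signal on a linear scale. A mean signal over 100 in at least 1 group separated 4 keratins (KRT8, KRT18, KRT19 and KRT10) from the other 40.

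The series holds 18 arrays in 6 groups of 3 RNA pools each. The groups were undifferentiated H9 ES cells, embryoid bodies at day 6, neural epithelial cells at day 10 and at day 17, and the same stages grown with basic fibroblast growth factor (bFGF) from day 6. The labels call the day 10 cells primitive and the day 17 cells definitive. They give the bFGF dose as 20 ug/ml at day 10 and as 20 ng/ml at day 17, and which unit holds at day 10 was not settled. All groups come from the 1 cell line, with no transgene named. The ES and embryoid body pools were made from numbered passages of H9, and day 6 pools 1 and 2 name the same passages (27, 28 and 31). ES pool 1 names these passages as well, whereas ES pool 2 names 24, 25 and 26. Pool 3 names 26, 28 and 29 in both ES cells and day 6. The labels do not say that the pools were separate differentiations, so p-values measure the spread between these pools. The untreated arrays are the controls of the bFGF arrays.

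Keratins are the intermediate filament proteins of epithelial cells. A filament is built from pairs of an acidic type I and a basic type II chain. KRT8 (type II) with KRT18 and KRT19 (type I) is the set found in simple, single-layered epithelia, in early embryonic epithelia and in human ES cells. KRT5 with KRT14 marks the basal layer of stratified epithelia, KRT1 with KRT10 the layers above it, and a large remainder builds hair and the sheath around it. Neuroepithelial cells are best known for the non-keratin filament proteins vimentin and nestin, and neurons for the neurofilaments. Of the 44 members 23 are type I and 20 are type II, while KRT222 is a keratin-like protein of neither type. The genes lie in 2 clusters, with 21 members on chromosome 12 and 23 on chromosome 17. KRT8 and KRT18 lie close together on chromosome 12, with MIR9898 between them in the RefSeq gene table. KRT18 is the type I gene that lies in the type II cluster.

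The labelled stages were checked against marker genes. All 9 measured pluripotency markers were called lower and 12 of 15 neural epithelium markers were called higher in untreated day 17 cells than in ES cells. Of all genes 20.2% were called in either direction there. The arrays shared 1 scale, with a trimmed mean signal of 150.02. The pool 2 arrays of the 4 neural epithelial groups stood apart, with a median signal of 48.7 to 50.8 against 25.2 to 32.7 on the other 14. On the pool 2 arrays of all 6 groups the ratio of 3' to 5' signal of ACTB, a measure of RNA quality, was 2.27 to 2.64 against 1.17 to 1.75 on the other 12, while that of GAPDH was 0.876 to 1.01 against 0.984 to 1.24.

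Promoter windows were taken for the members that the results below turn on and that have 1 window in the RefSeq table: KRT10, the only keratin of the bright 4 that is not of simple epithelia, KRT5, the only keratin called without a block for pool number, and KRT8. They were chosen with these values known. Each window runs from 250 bases before to 50 bases after the start of the gene (build GRCh38.p14), and the KRT10 and KRT5 windows are printed 5' to 3' on the gene's strand with motif matches in capitals. The KRT10 window is chr17:40822565-40822864 and the KRT5 window chr12:52520345-52520644, both on the minus strand.
KRT10: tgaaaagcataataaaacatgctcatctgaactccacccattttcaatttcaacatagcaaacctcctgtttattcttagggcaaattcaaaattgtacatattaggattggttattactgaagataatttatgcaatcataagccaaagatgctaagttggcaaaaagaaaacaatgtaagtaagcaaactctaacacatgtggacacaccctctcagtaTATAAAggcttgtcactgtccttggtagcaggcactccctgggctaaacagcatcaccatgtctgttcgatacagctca
KRT5: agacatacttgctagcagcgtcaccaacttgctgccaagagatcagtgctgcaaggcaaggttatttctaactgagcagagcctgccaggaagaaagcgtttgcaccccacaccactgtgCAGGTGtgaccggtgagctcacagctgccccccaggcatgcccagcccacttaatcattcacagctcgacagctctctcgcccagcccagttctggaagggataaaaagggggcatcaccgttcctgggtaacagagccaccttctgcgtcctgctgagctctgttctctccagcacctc
On both strands a search was made for 5 motifs, the TATA box (TATAAA), the GC box (GGGCGG), the AP-2 motif (GCCNNNGGC), the AP-1 motif (TGANTCA) and the E-box bound by SNAI and ZEB repressors (CACCTG). KRT10 held a TATAAA that begins 29 bases before the start, and KRT5 held a CAGGTG that begins 130 bases before it. The KRT8 window held none of the motifs. Of the 44 members 29 had a window. A TATA box was present in 16 of these 29 (55.2%), against 11.5% of all 35116 windows in the table. A GC box was present in 6 (20.7%) against 45.0%, an AP-2 motif in 5 (17.2%) against 23.2%, an AP-1 motif in 0 against 7.71% and an E-box in 6 (20.7%) against 20.6%. The searched strings do not overlap one another in the printed windows. A match is a description of the letters, and the arrays do not measure binding.

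KRT18, the type I partner of KRT8, gave a strong signal in every group. In pools 1, 2 and 3 its signal was 2421, 1588 and 3874 in ES cells and 3223, 2672 and 3368 at day 6. Without bFGF it was 2152, 1723 and 3394 at day 10 and 1503, 1076 and 1924 at day 17. With bFGF it was 3074, 2137 and 2845 at day 10 and 1507, 1300 and 2766 at day 17. Pool 2 was the lowest array in each of the 6 groups. The group means ran from 3088 ± 367 (SD, n = 3) at day 6 down to 1501 ± 424 at untreated day 17, a span of 2.06-fold, and each group overlapped the next in that order.

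KRT8 gave its lowest mean in ES cells. In pools 1, 2 and 3 its signal was 633, 347 and 742 in ES cells and 1024, 966 and 904 at day 6. Without bFGF it was 816, 753 and 1039 at day 10 and 685, 471 and 717 at day 17. With bFGF it was 984, 741 and 839 at day 10 and 621, 556 and 1078 at day 17. All 3 day 6 pools lay above all 3 ES pools, and the mean went from 574 ± 204 (SD, n = 3) in ES cells to 965 ± 59.98 at day 6. The span of its group means was 1.68-fold. KRT8 and KRT18 were each read from a single probe set of the type whose probes can match other transcripts, and both genes have many near-identical processed pseudogenes in the genome, so their values may include other copies.

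KRT19, a short type I keratin that pairs with KRT8, had the widest span of the 4, at 4.42-fold between group means. In pools 1, 2 and 3 its signal was 724, 403 and 1034 in ES cells and 1501, 999 and 1292 at day 6. Without bFGF it was 662, 394 and 945 at day 10 and 403, 198 and 412 at day 17. With bFGF it was 618, 273 and 616 at day 10 and 273, 131 and 454 at day 17. The day 6 arrays held the highest mean (1264 ± 252, SD, n = 3) and lay wholly above both day 10 groups and both day 17 groups. The order ran on through ES cells (720 ± 316), untreated day 10 (667 ± 275), bFGF day 10 (503 ± 199) and untreated day 17 (338 ± 121) to bFGF day 17 (286 ± 162), with overlap between each group and the next. A second KRT19 probe set was dim and did not show this order. Its means were 7.88 ± 8.17 (SD, n = 3) in ES cells, 3.90 ± 4.48 at day 6 and 6.27 ± 4.86 at untreated day 10. Its highest group mean was 12.3, in bFGF day 10 cells.

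KRT10, a type I keratin of the suprabasal epidermis, had the narrowest span of the 4 and was lowest where KRT8, KRT18 and KRT19 were highest. In pools 1, 2 and 3 its signal was 782, 726 and 653 in ES cells and 702, 687 and 685 at day 6. Without bFGF it was 804, 873 and 532 at day 10 and 970, 1014 and 840 at day 17. With bFGF it was 884, 841 and 675 at day 10 and 966, 1054 and 806 at day 17. Its mean was lowest at day 6 (691 ± 9.27, SD, n = 3) and stood at 942 ± 90.3 at untreated day 17 and 942 ± 125 with bFGF, a span of 1.36-fold. The 2 further probe sets of KRT10 had means of 393 and 530 in ES cells and 682 and 787 at untreated day 17. KRT1, the usual type II partner of KRT10, was among the 40 dim keratins.

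**Figure D1:**
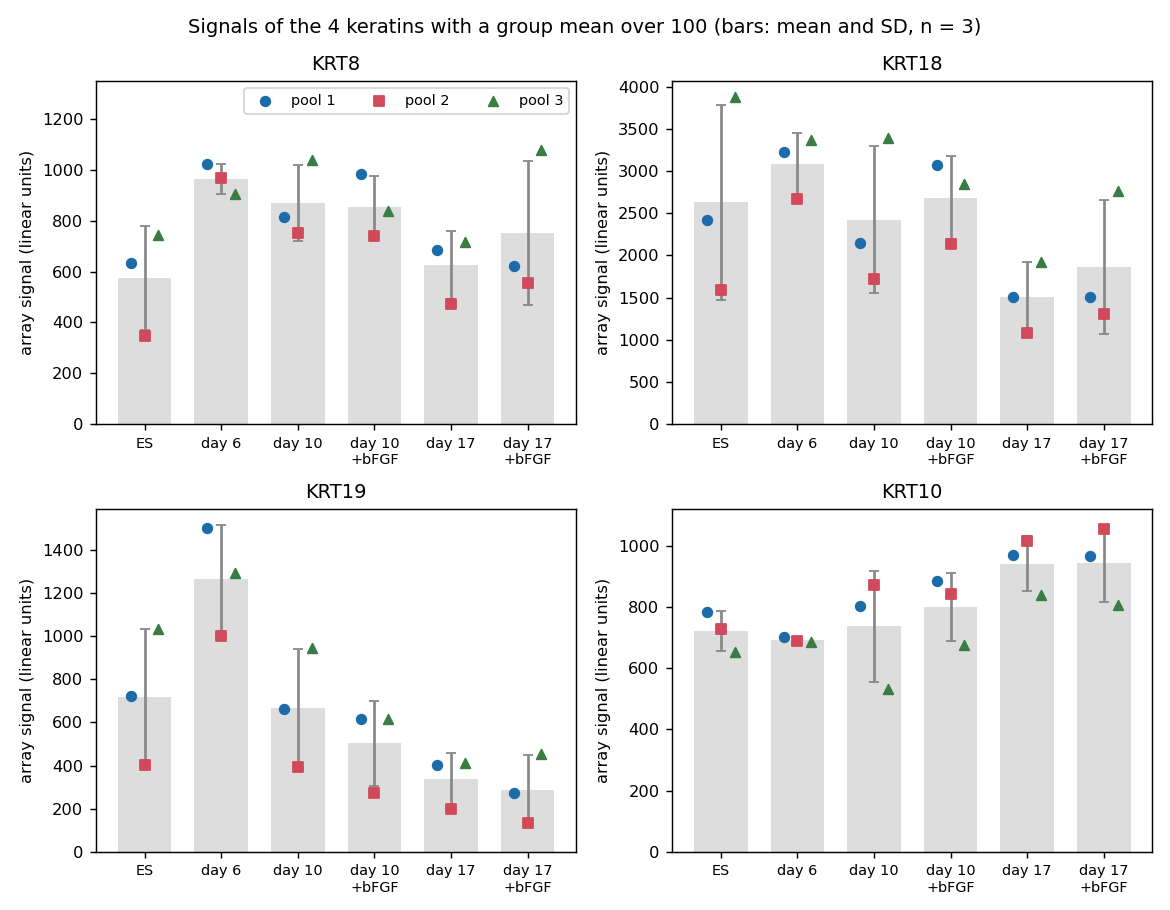
Array signal (linear units, y axis) of KRT8, KRT18, KRT19 and KRT10 in the 6 groups (x axis); grey bars are group means with the SD of 3 pools and the coloured points are the single arrays by pool. KRT19 has its highest mean, 1264, at day 6 and lower means from day 10 on, and the pool 2 squares are the lowest KRT18 and KRT19 points in all 6 groups.

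The spread between pools was shared by the simple-epithelial keratins. KRT18 and KRT19 were lowest in pool 2 in 6 of 6 groups and KRT8 in 5 of 6, whereas KRT10 was lowest in pool 3 in 6 of 6. Over the 18 arrays, after each group mean was subtracted on the log2(signal + 16) scale, KRT8 and KRT18 had a Pearson correlation of 0.93, KRT18 and KRT19 of 0.92 and KRT8 and KRT19 of 0.87. KRT10 had correlations of -0.51 to -0.71 with these. The arrays share cell line and pool number, so these values are descriptions. CDH1 (E-cadherin) was highest in pool 2 in 6 of 6 groups and VIM (vimentin) highest in pool 3 in 6 of 6. These 2 genes were picked after their values were seen. The part of RNA quality and of pool in these patterns was not tested.

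Comparisons were made with limma on log2(signal + 16), with 1 mean per group and Benjamini-Hochberg adjustment over all 19775 genes. A gene was called at an adjusted p under 0.05. In bulk RNA, fewer cells of a type and less RNA per cell cannot be told apart. Across the 7 comparisons 1 call was made on a keratin without a block for pool number.

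Between ES cells and day 6, the simple-epithelial keratins had higher means and none passed the test without the block. KRT8 differed by 0.80 ± 0.29 on the log2 scale (95% interval 0.18 to 1.41, adjusted p = 0.186 by limma) and was higher at day 6 in 3 of 3 pools. KRT19 differed by 0.88 ± 0.47 (adjusted p = 0.479), also higher in 3 of 3 pools, and KRT18 by 0.32 ± 0.35 (adjusted p = 0.864). KRT10 differed by -0.05 ± 0.20. Of the 44 keratins 0 were called by limma against 3.85% of all genes, and 2 had an unadjusted p under 0.05 against 13.0% of all genes. With the pool number as a block, KRT8 (adjusted p = 0.0393) and KRT19 (adjusted p = 0.0177) were called, against 7.35% of all genes. For pool 2 the passages named differ between ES cells and day 6, so the block and the counts of pools join unlike passages there. The number of 1 ES pool is not in its title, and over 30 alternatives the adjusted p ran from 0.0393 to 0.543 for KRT8 and from 0.0177 to 0.788 for KRT19. In 5 of 44 (11.4%) the 2 groups did not overlap, against 19.8% of all genes. The median change of the 44 was 0.08, beside 0.00 over all genes. ES cells also carried more signal of the 15 mesenchyme and muscle markers, with a summed signal of 6849 to 7535 against 2061 to 2586 at day 6. Of these markers 1 was called higher and 3 lower at day 6, and their part in the keratin values was not tested.

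Linked genes were counted in the same comparison, where 3.85% of all genes were called. TCHP (trichoplein), a keratin-binding protein, rose by 1.72 ± 0.32 and was the only call among 19 desmosome and keratin linker genes. Of 16 epithelial transcription and splicing factors 5 rose and 0 fell. TFAP2A rose by 3.82 ± 0.40, TFAP2B by 3.32 ± 0.47, GATA3 by 2.94 ± 0.34 and ZNF750 by 1.79 ± 0.30, all on the log2(signal + 16) scale. These factors act in surface ectoderm, keratinocytes or trophoblast. Of 16 junction and surface markers CLDN4, a tight junction protein, rose by 1.71 ± 0.35 and 0 fell. Of 11 trophoblast markers HAND1 rose by 2.31 ± 0.32 and VGLL1 by 1.96 ± 0.30, and 0 fell. The median change of the 11 was -0.17, beside 0.00 over all genes, so the list did not rise as a whole. The summed signal of the 11 was 319 to 404 at day 6 against 171 to 207 in ES cells. Only 1 of them had a mean over 100 at day 6. The part of such cells in the day 6 keratin signals was not tested.

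KRT7, another type II keratin of simple epithelia and trophoblast, was the dim keratin nearest to the threshold, with its highest mean of 81.0 ± 28.4 (SD, n = 3) at untreated day 10. Next below came KRT24, at 49.5 ± 24.8 in bFGF day 10 cells. KRT10 was the lowest of the 4 inside, with a highest group mean of 942. The probe sets of KRT7 disagreed. On the set used, pools 1, 2 and 3 gave 12.4, 48.2 and 92.5 in ES cells, 50.9, 69.7 and 46.7 at day 6 and 48.3, 97.7 and 97.1 at untreated day 10. On a second set they gave 36.5, 12.4 and 71.2 in ES cells, 108, 95.3 and 101 at day 6 and 16.9, 31.8 and 61.0 at untreated day 10. The second set thus had a day 6 mean of 102 ± 6.55 and groups that did not overlap on either side of it. Its difference was 1.21 ± 0.41 from ES cells to day 6 (adjusted p = 0.220 by limma over all probe sets) and -1.25 ± 0.41 from day 6 to day 10 (adjusted p = 0.120).

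Between day 6 and untreated day 10, many epithelial genes fell, and no keratin passed the test without the block. KRT19 differed by -0.97 ± 0.47 (95% interval -1.96 to 0.02, adjusted p = 0.284 by limma), was lower in 3 of 3 pools, and its groups did not overlap. KRT18 differed by -0.40 ± 0.35 and KRT8 by -0.16 ± 0.29. Of the 44 keratins 0 were called, against 6.37% of all genes, and 2 had an unadjusted p under 0.05 against 18.2% of all genes. In 4 of 44 (9.09%) the groups did not overlap, against 23.2% of all genes. With the pool number as a block in the fit, KRT19 (adjusted p = 0.00663 by limma) and KRT74 were called, against 12.7% of all genes. Over 30 alternatives the adjusted p of KRT19 ran from 0.00663 to 0.630. Over the same step 8 of 16 junction and surface markers fell and 0 rose. CDH1, the adhesion molecule of epithelial junctions, fell by 3.44 ± 0.31 and EPCAM by 2.81 ± 0.19 on the log2 scale. Of the 16 epithelial factors 8 fell and 0 rose, led by ESRP1 (-3.51 ± 0.24), a regulator of epithelial splicing, and KLF4 (-2.84 ± 0.31). Of 19 desmosome and linker genes PPL (periplakin) fell by 1.70 ± 0.30, DSG2 (desmoglein 2) by 1.39 ± 0.22 and PERP by 1.01 ± 0.24. Among 17 other intermediate filament genes VIM rose by 1.31 ± 0.30 and 0 fell.

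The keratin differences were also set against that of CDH1 on the same arrays, as the change of the difference in log2(signal + 16). This and the keratin pairs below make 48 exact permutation tests, 2-sided over arrays and added after the data were seen. With 3 arrays against 3 the smallest p is 0.1, which 20 of the 48 reached, and with Benjamini-Hochberg adjustment over the 48 it becomes 0.24. From day 6 to day 10 the difference from CDH1 changed by 3.28 for KRT8, 3.04 for KRT18, 2.47 for KRT19 and 3.50 for KRT10. In all 4 cases the groups did not overlap and p was 0.1 (exact permutation test). CDH1 itself fell over this step, so a gene with no change of its own also gives a large value. KRT10 alone differed by 0.06 ± 0.20. The share of all genes apart from CDH1 in this way was not counted.

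Between untreated day 10 and day 17, all 3 simple-epithelial keratins had lower signals in 3 of 3 pools and none was called without the block. KRT19 differed by -0.93 ± 0.47 (adjusted p = 0.562 by limma), KRT18 by -0.67 ± 0.35 (adjusted p = 0.610) and KRT8 by -0.48 ± 0.29 (adjusted p = 0.690). The KRT8 groups did not overlap. KRT10 differed by 0.37 ± 0.20 and was higher in 3 of 3 pools. Of the 44 keratins 0 were called against 1.99% of all genes, 3 had an unadjusted p under 0.05 against 9.76% of all genes, and in 5 (11.4%) the groups did not overlap against 13.6% of all genes. With the pool number as a block in the fit, 3 keratins were called against 3.81% of all genes: KRT19 (adjusted p = 0.0197), KRT5 (adjusted p = 0.0246) and KRT222. Over the 30 alternatives tried for KRT19 the adjusted p ran from 0.0197 to 0.852. Of the linked lists, 0 of the 16 junction markers, 0 of the 19 desmosome genes and 0 of the 16 epithelial factors were called, while NEFL (1.90 ± 0.20) and INA (1.24 ± 0.19), which encode neuronal filament proteins, rose.

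Over the whole span from ES cells to untreated day 17, KRT18 differed by -0.75 ± 0.35 (95% interval -1.49 to 0.00, adjusted p = 0.167 by limma). KRT19 differed by -1.03 ± 0.47 (adjusted p = 0.148), and its mean at day 17 was 0.469 times that in ES cells. Both were lower in 3 of 3 pools. Without pool 2 of all 6 groups KRT19 was called (-1.06, adjusted p = 0.0309), and over 30 alternatives its adjusted p ran from 0.00162 to 0.442. KRT8 differed by 0.16 ± 0.29 (adjusted p = 0.780). KRT10 differed by 0.38 ± 0.20 (adjusted p = 0.230), with all day 17 arrays above all ES arrays. When all probe sets were tested by limma, a further set of KRT10 differed by 0.74 ± 0.23 and was called (adjusted p = 0.0438). It is of the type whose probes can match other transcripts. Another set of that type (0.56 ± 0.19, adjusted p = 0.0692) and the set used (adjusted p = 0.292) were not called in that test. Of the 44 keratins 1 was called (2.27%), against 20.2% of all genes, and 3 had an unadjusted p under 0.05 against 30.1% of all genes. With the pool number as a block 6 were called against 29.4% of all genes: KRT18 (adjusted p = 0.0100), KRT19 (adjusted p = 0.00162), KRT2, KRT27, KRT37 and KRT5. The adjusted p of KRT18 ran from 0.0100 to 0.541 over 30 alternatives. In 7 of 44 (15.9%) the groups did not overlap, against 33.6% of all genes.

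KRT5, the type II keratin of basal cells in stratified epithelia, was the call made without the block. In pools 1, 2 and 3 its signal was 2.54, 3.23 and 1.93 in ES cells, 1.09, 14.2 and 1.46 at day 6, and 2.43, 5.55 and 1.96 at untreated day 10. At untreated day 17 it was 13.1, 30.5 and 10.9. With bFGF it was 3.41, 4.59 and 5.38 at day 10 and 1.74, 5.31 and 1.38 at day 17. The untreated day 17 arrays lay above those of every group except day 6, where pool 2 reached 14.2, and every value lay below the median signal of its array. KRT5 rose by 0.84 ± 0.24 from ES cells to untreated day 17 (adjusted p = 0.0192 by limma), and over 29 alternatives the adjusted p ran from 0.00266 to 0.117. The call was lost without ES pool 1 (adjusted p = 0.0513), without ES pool 3 (0.0576), without untreated day 17 pool 2 (0.113) or without pool 2 of all 6 groups (0.0644). It was also lost with a pseudocount of 64, with the 2 groups fitted alone and without the 4 pool 2 arrays of the neural epithelial groups. KRT14, its usual type I partner, was not called in any comparison by the fit without the block.

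Markers of other cell types were also higher at untreated day 17 than in ES cells. In this comparison limma called 20.2% of all genes in either direction. Of 14 yolk sac and liver markers 9 rose and 0 fell from ES cells to untreated day 17, with a summed signal of 2188 to 3593 at untreated day 17 against 266 to 323 in ES cells and 592 to 789 in bFGF day 17 cells. AFP (alpha-fetoprotein) rose by 3.11 ± 0.38. Of 15 mesenchyme and muscle markers 6 rose and 1 fell, and their summed signal was 14765 to 20044 at untreated day 17 and 14665 to 19625 in bFGF day 17 cells. Their part in the KRT5 result was not tested.

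Over this span, where limma called 20.2% of all genes in either direction, junction and surface genes fell. Of 16 junction and surface markers 11 fell and 0 rose, with a median of -2.03 beside 0.22 for the 44 keratins and 0.09 for all genes. CLDN7 fell by 4.35 ± 0.39, CDH1 by 4.14 ± 0.31 and EPCAM by 4.01 ± 0.19 on the log2 scale. Of 16 epithelial factors 6 fell and 4 rose, with ESRP1 at -4.59 ± 0.24. Of 19 desmosome and linker genes 3 fell (PPL, PERP and DSG2) and 2 rose (TCHP and DSC3), not far from the share over all genes. The median change of the 19 was 0.08, beside 0.09 for all genes. Of 17 other intermediate filament genes 6 rose and 1 fell, with NEFM at 1.99 ± 0.52, NEFL at 1.81 ± 0.20 and NES (nestin) at 1.597 ± 0.49. The difference between a keratin and CDH1 changed by 4.30 for KRT8, 3.40 for KRT18, 3.12 for KRT19 and 4.52 for KRT10, each with groups that did not overlap (exact permutation p = 0.1). As CDH1 alone fell by 4.14, a gene with no change of its own would give a value near that.

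**Figure D2:**
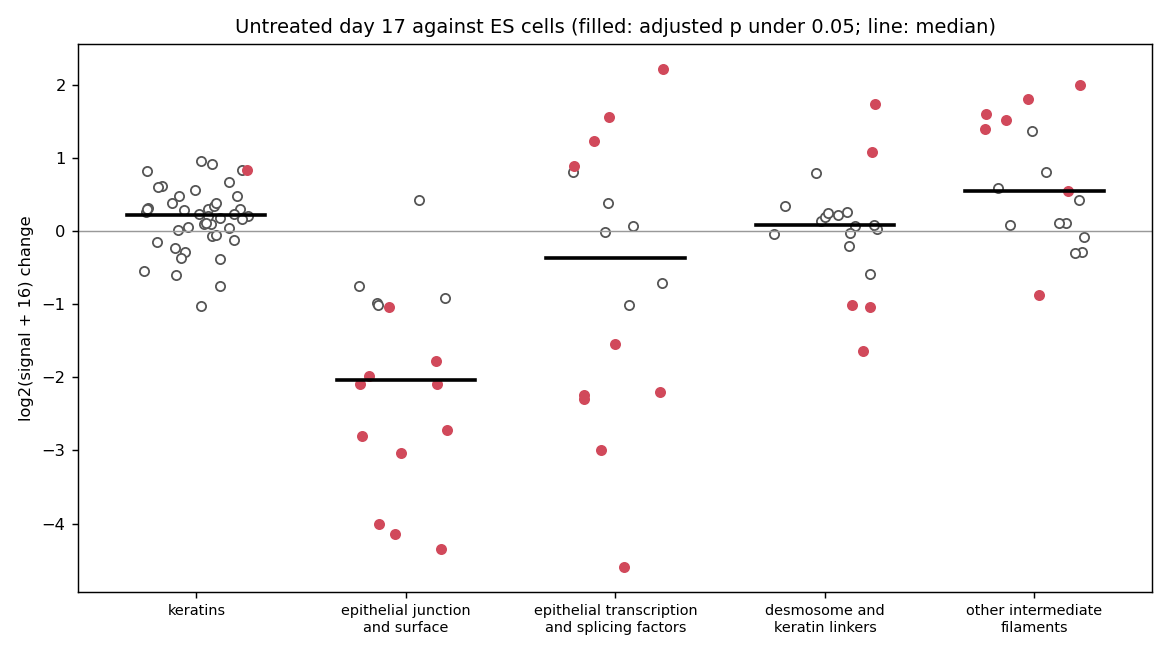
Change from ES cells to untreated day 17 on the log2(signal + 16) scale (y axis) of each gene in 5 lists (x axis); filled points have an adjusted p under 0.05 by limma and black lines are list medians. The keratins sit around a median of 0.22 with 1 filled point, while 11 of the 16 junction and surface markers are filled below 0. Of all genes 20.2% were called in this comparison.

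Ratios of the simple-epithelial keratins to one another were compared between groups. With so few arrays per group the exact permutation p cannot fall under 0.1. No ratio could therefore pass at 0.05, and the changes are given as descriptions. The share of other gene pairs with groups that did not overlap was not counted. From ES cells to day 17 the KRT8 to KRT18 difference changed by 0.91 on the log2 scale, and from ES cells to day 6 by 0.48, with groups that did not overlap in both. KRT19 changed relative to KRT18 by 0.56 from ES cells to day 6 and by -0.57 from day 6 to day 10, again with no overlap. Relative to KRT8, KRT19 changed by -0.81 from day 6 to day 10 and by -1.19 from ES cells to day 17. Each of these 6 had an exact permutation p of 0.1 and an adjusted p of 0.24 over the 48 tests. A ratio within an array shows unequal change of the 2 probe sets and not which of them changed.

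bFGF left no called difference on a keratin at either day. At day 10 KRT19 differed by -0.40 ± 0.47 (95% interval -1.39 to 0.59) and was lower in 3 of 3 pools, KRT18 by 0.19 ± 0.35, KRT10 by 0.14 ± 0.20 and KRT8 by -0.02 ± 0.29. At day 17 KRT18 differed by 0.26 ± 0.35 and was higher in 3 of 3 pools, KRT8 by 0.22 ± 0.29 (95% interval -0.39 to 0.84), KRT19 by -0.32 ± 0.47 and KRT10 by 0.00 ± 0.20. The adjusted p of each was 1.00 by limma. At day 10 limma called 0.086% of all genes and at day 17 0.339%, so that few genes of any family passed. Of the keratins 1 had an unadjusted p under 0.05 at day 10 and 2 at day 17, against 3.10% and 4.96% of all genes. The groups did not overlap in 4 keratins (9.09%) at day 10 and 3 (6.82%) at day 17, against 6.11% and 9.03% of all genes.

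KRT5 had the smallest p of the keratins for bFGF. At day 17 it differed by -0.82 ± 0.24 between bFGF and none (unadjusted p = 0.00337, adjusted p = 0.372 by limma), with no overlap, and the adjusted p ran from 0.0647 to 1.00 over 29 alternatives. In the same comparison, where 0.339% of all genes were called, 3 of the 14 yolk sac and liver markers fell and 0 rose. AFP was at -2.55 ± 0.38, and CDH1 fell by 1.57 ± 0.31. KRT19 changed relative to KRT18 by -0.59 at day 10 and by -0.58 at day 17, with no overlap in either (exact permutation p = 0.1). For the difference of the bFGF effects at the 2 days, limma called 0 keratins and 0 of all genes, and 1 keratin had an unadjusted p under 0.05 against 3.19% of all genes.

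**Figure D3:**
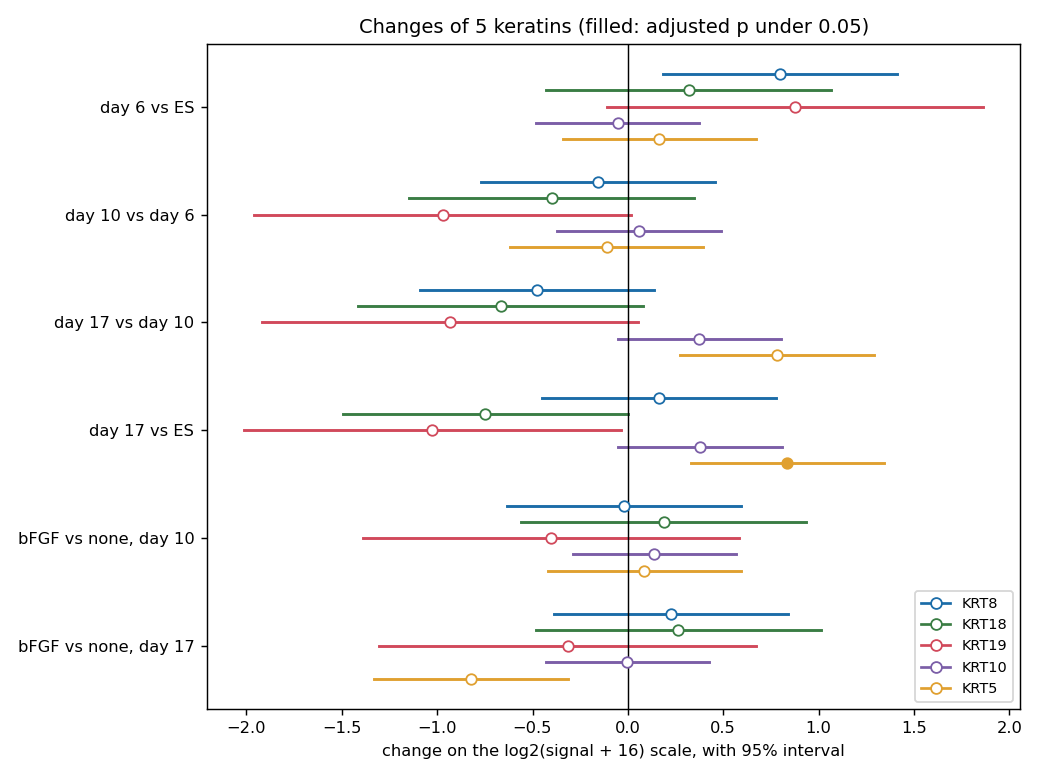
Change of KRT8, KRT18, KRT19, KRT10 and KRT5 on the log2(signal + 16) scale (x axis) in 6 comparisons (y axis); points are limma estimates, lines are 95% intervals, and a filled point has an adjusted p under 0.05 without the block. The only filled point is KRT5 at 0.84 from ES cells to day 17.

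The 40 keratins with no group mean over 100 made up the rest of the family, so 9.09% of keratins passed that level against 50.2% of all genes. The highest group mean of these 40 ranged from 4.22 to 81.0 with a median of 17.7, and 39 stayed under 50 in every group. Of their 720 array signals 649 (90.1%) lay below the median of all probe sets on the array, and 22 genes did so on all 18 arrays. The split at 100 itself selects low signals, and the share for other genes under 100 was not counted. All 16 basal and suprabasal keratins of the list were measured, with KRT10 the only one over 100, and so were 19 of 26 hair and inner root sheath keratins, with none over 100. Of 5 stress keratins KRT16 alone was measured, at 1.15 to 16.3. KRT17, KRT6A, KRT6B, KRT6C and 20 further keratin symbols of the RefSeq table had no probe set of their own and were not analysed here. Apart from KRT5, limma called 0 of these 40 in any of the 7 comparisons without the block. The counts at an unadjusted p under 0.05 are those given with each comparison.

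The dim keratins were higher on the pool 2 arrays of the neural epithelial groups, as was the median of all probe sets (48.7 to 50.8 against 25.2 to 32.7). Their median signal was 12.1 to 23.6 on these 4 arrays and 3.88 to 9.38 on the other 14. Of the 40, 35 had a higher mean on these 4 arrays than on the 8 other neural epithelial arrays, and 25 had their highest signal on one of them. The shares of other dim genes that do so were not counted, so these counts are not a trait of keratins. KRT78 had 87.0 to 104 on the 4 arrays and 2.43 to 18.01 on the other 14. By the probe set used for each gene, KRT78 was the only one of the 40 with a signal over 100 on an array. The second KRT7 set described above also passed 100, at day 6. From day 6 to untreated day 10 the median change of the 40 was 0.27 on the log2 scale, beside 0.09 for all genes. Without the 4 arrays these values were 0.07 and 0.05, and with quantile scaling they were 0.08 and -0.02. The part of background signal in the dim values was not tested.

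**Figure D4:**
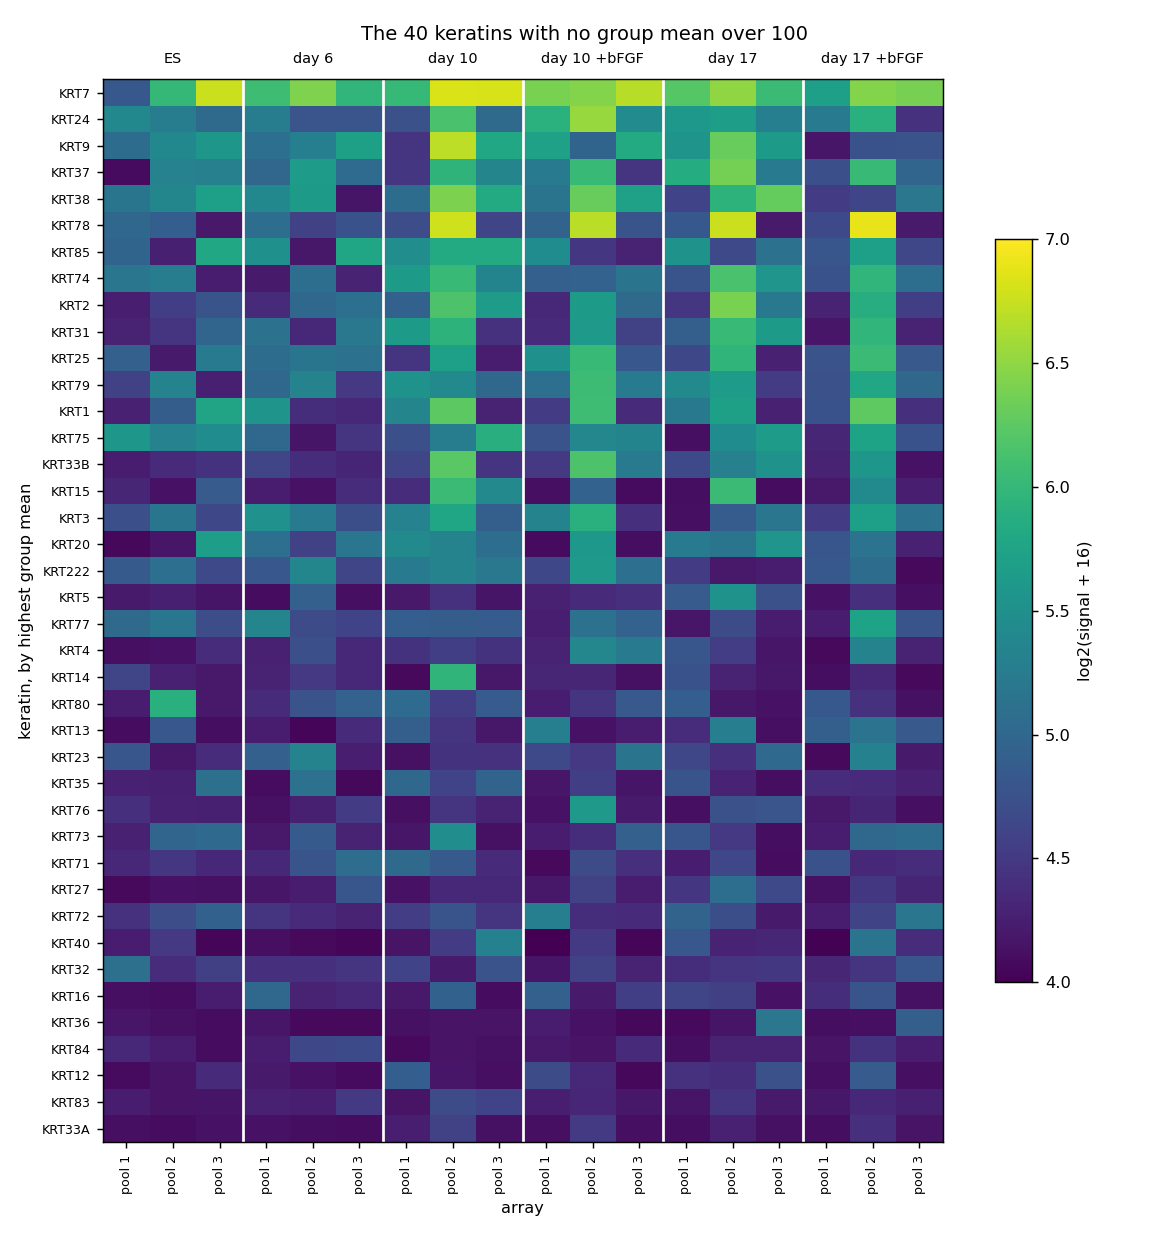
Colour gives log2(signal + 16) of the 40 keratins with no group mean over 100 (y axis, ordered by highest group mean) on the 18 arrays (x axis, pools within groups). The pool 2 columns of the 4 neural epithelial groups are brighter, with KRT78 at 87.0 to 104 in linear signal there and at most 18.01 elsewhere.

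The 5 genes most like each simple-epithelial keratin were listed by Pearson correlation over the 18 arrays on the log2(signal + 16) scale, as a description. For KRT8 these were S100A13 (0.86), MRPS6, PUDP, INAVA and MYL11 (0.80). For KRT18 they were UBE2E1 (0.91), TMEM216, CHST7, PNPLA4 and MMS19 (0.89). For KRT19 they were CZIB (0.95), ARG2, ZNF232, GPR143 and GNPDA1 (0.91). None is a keratin. The arrays share groups and pool numbers, so these values hold both the stages and the pools.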

How the data were processed

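The deposited values are array signal intensities on a linear scale, 54675 probe sets on each of 18 arrays, as the authors deposited them. No label or header names how probes were summarised, the background corrected or detection called. From the values, each array had been scaled to 1 trimmed mean, and no further scaling was applied. The number of arrays limits the precision. Of the probe sets 41097 named 1 gene, 1801 several and 11777 none. Each gene was read from its probe set with the highest mean, with sets of the cross-matching type (_x_at) dropped where another existed, and the log2 of signal plus a pseudocount of 16 was fitted in limma (version 3.58.1, run under R version 4.3.3), where lmFit took all 18 arrays, a mean for each group and no other term and eBayes followed, with Benjamini-Hochberg adjustment over 19775 genes and 12 residual degrees of freedom. The fitting steps were tested on simulated data. Single differences between genes were tested with exact permutation tests over arrays.

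The members, gene lists and alternatives were chosen with earlier results of these data known. The keratins over 100, those called in a comparison and those nearest to 100 (KRT7 and KRT10) are described singly, the rest by range and count, and of each list up to 4 called genes of largest change. Keratins named outside this rule (KRT24, KRT1, KRT2, KRT14, KRT16, KRT27, KRT37, KRT74, KRT78, KRT222 and those not measured) and the second KRT7 and KRT19 probe sets were chosen after their values were seen. Pool numbers come from the titles, except that of ES pool 1, which has none in its title and follows sample order. For 1 bFGF day 10 pool the title gives 2 and the description 1, and the title was used. Counts of pools rest on these numbers. Deviations of same-numbered pools from their group means correlated at 0.365 to 0.621 between the untreated day 10 and day 17 groups. For bFGF they correlated at 0.394 to 0.668 at day 10 and 0.317 to 0.653 at day 17, so the numbers were taken to pair these groups. The main fit left this pairing out, and only the fits with a block used it. The deviations correlated at 0.209 to 0.383 between ES cells and day 6. Between ES cells and untreated day 17, where 1 ES pool is unnumbered, they correlated at 0.156 to 0.248. ES pool 2 and day 6 pool 2 name different passages. Between day 6 and day 10 the lowest was 0.0749. Alternatives changed the pseudocount, scaling, filter, variance prior, probe set rule, samples and block.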

Additional observations from a re-analysis of the deposited data

How the results depend on the processing

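Between 29 and 30 alternatives were run on each of the 5 keratins named in the tests. Of 1043 single values 1023 kept their side of the threshold (991 with the same sign and 32, none called, with the other), 13 came to pass it, 7 no longer passed and 0 called values turned direction. Of 210 counts of called keratins 188 stayed and 22 moved. For ES cells against untreated day 17 the count of 1 became 2 with all probe sets tested (KRT10 and KRT5), 2 with a pseudocount of 1, 2 with a gene's probe sets averaged and 2 with a trended, robust prior (KRT27 and KRT5 in these 3). It became 0 with only the groups compared, 0 with the upper 60% of genes, which leaves KRT5 out, 0 with a pseudocount of 64 and 0 without the 4 pool 2 arrays of the neural epithelial groups. Without pool 2 of all groups the count was 1 but the gene was KRT19. Leaving out 1 array at a time gave 0 to 2 for this comparison and 0 for every other. It was 2, with KRT27 added, without day 6 pool 3, bFGF day 10 pool 2 or untreated day 17 pool 1. The causes were not tested, except that the filter removes KRT5.

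With the pool number as a fixed block the counts were 2 from ES cells to day 6 (KRT8 and KRT19), 2 from day 6 to day 10 (KRT19 and KRT74), 3 from day 10 to day 17 (KRT19, KRT222 and KRT5) and 6 from ES cells to day 17 (KRT18, KRT19, KRT2, KRT27, KRT37 and KRT5), against 7.35%, 12.7%, 3.81% and 29.4% of all genes. With the random replicate block they were 1, 2, 2 and 4, against 6.89%, 11.6%, 3.81% and 28.1%. The block changed no call in the bFGF comparisons. The fixed block gave KRT19 an adjusted p of 0.0177, 0.00663, 0.0197 and 0.00162 in these 4 comparisons, against 0.479, 0.284, 0.562 and 0.148 without it (limma), and KRT8 0.0393 at day 6. By the passages named, day 6 pool 2 matches ES pool 1 and not ES pool 2. The passages named are the same for ES pool 1 and day 6 pool 1, and for ES pool 3 and day 6 pool 3. ES pool 1 thus matches day 6 pools 1 and 2, and the labels do not settle the pairing further. Quantile scaling moved the median of all genes by -0.12 from day 6 to day 10 and by -0.13 from ES cells to day 17.

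The dim keratins were set apart by low signal, 90.1% of their signals lie below the array median, and each group has only 3 pools.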
